A study of Mus musculus with 4 samples.

Results

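The S9.6 CUT&Tag peak lists of P19 cells carrying either of 2 hairpins against Ube2t were compared interval by interval. Each list was reduced to distinct intervals with the values of the best summit by p, which left 1519 intervals for shUbe2t #1 and 1640 for shUbe2t #2, or 3159 of the 4938 intervals in the 4 lists of the series. An interval had a partner when at least 1 bp of it was covered by the other hairpin's list. P19 is a mouse embryonal carcinoma line of embryo origin, and the series asks what UBE2T does to R-loops. Both hairpins were delivered by adenovirus and both libraries are labelled as Ube2t knockdown, with S9.6 as the antibody. A library of cells given the control adenovirus (shCtrl, labelled wild-type) and profiled with S9.6 held 1263 intervals. A further library of shCtrl cells, labelled as made without primary antibody, held 516. The deposited peak names of that last library begin with IgG, and "no antibody" here follows its label. Every library was amplified for 11 PCR cycles, and there was 1 library per condition. No p-value is therefore given, the spread between libraries of the same hairpin is unknown, and hairpin and library cannot be told apart. Bounds in brackets are 95% binomial intervals by the exact Clopper-Pearson method, which take in counting error and nothing else.

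R-loops form when RNA pairs with its DNA template and leaves the other DNA strand unpaired. They are known to gather at the starts and ends of transcribed genes, often over GC-rich DNA, and are removed by RNase H enzymes and by helicases. UBE2T is the E2 enzyme that works with the ligase FANCL to attach ubiquitin to FANCD2 and FANCI, the central step of the Fanconi anaemia pathway, which also acts where replication meets R-loops. S9.6 is an antibody that binds RNA:DNA hybrids, and in CUT&Tag a tethered transposase tags the DNA around the bound antibody. None of the libraries had been treated to remove hybrids, so no interval can be called an R-loop from these data. A pair of hairpins against the same transcript is a usual check that an effect does not belong to 1 hairpin, and the comparison below asks how far both lists name the same places. Ube2t RNA cannot be read from tagged DNA, so the knockdown itself was not checked. Ube2t held no interval within 1000 bp in either list, and the nearest lay 226 kb away in both. None of the 15 embryonal carcinoma marker genes examined held an interval free of no-antibody intervals in either list, nor did any of 6 endoderm or 5 mesoderm markers, and of 6 neural markers only Map2 did, in the #1 list. Over all protein-coding genes 4.51% held such a #1 interval and 4.96% a #2 interval, so counts near 0 are usual for lists of this size. They say nothing about expression.

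The DNA at or beside the intervals is shown first for 7 gene starts, 3 with a strong interval of both hairpins, 1 with #1 alone, 1 with #2 alone, and 2 with the same place called in both lists at unequal height. Each line is the stretch before the start of the gene that lies in no annotated gene, 5′ to 3′ on the strand of the gene, from the RefSeq promoter table on GRCm38.p6 (mm10). Capitals mark GGGCGG and its reverse complement CCGCCC, the GC box bound by SP1-family factors. A match is a description of the letters, not a binding site. Intervals covered 160 bases of the Zfp983 stretch, 213 of Pa2g4, 216 of Anapc4 and all of the others.
Nr1d2, both, chr14:18239107-18239356, minus strand: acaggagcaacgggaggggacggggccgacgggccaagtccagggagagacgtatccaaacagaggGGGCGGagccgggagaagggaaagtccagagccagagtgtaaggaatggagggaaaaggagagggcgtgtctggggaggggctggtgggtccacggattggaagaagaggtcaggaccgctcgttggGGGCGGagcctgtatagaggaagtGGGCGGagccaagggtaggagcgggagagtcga
Casc1, both, chr6:145211018-145211133, minus strand: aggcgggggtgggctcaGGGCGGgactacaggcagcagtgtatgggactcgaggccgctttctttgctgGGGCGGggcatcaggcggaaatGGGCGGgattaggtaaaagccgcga
Gatad2a, both, chr8:69996403-69996634, minus strand: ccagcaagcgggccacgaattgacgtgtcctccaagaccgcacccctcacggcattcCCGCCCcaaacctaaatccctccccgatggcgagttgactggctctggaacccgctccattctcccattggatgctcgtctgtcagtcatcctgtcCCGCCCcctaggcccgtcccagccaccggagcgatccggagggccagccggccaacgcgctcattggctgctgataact
Zfp983, #1 alone, chr17:21650361-21650571, plus strand: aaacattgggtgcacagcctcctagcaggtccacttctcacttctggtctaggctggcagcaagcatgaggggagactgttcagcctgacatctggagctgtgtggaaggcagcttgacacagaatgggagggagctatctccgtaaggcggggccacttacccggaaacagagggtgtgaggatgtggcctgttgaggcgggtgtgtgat
Pa2g4, #2 alone, chr10:128565935-128566184, minus strand: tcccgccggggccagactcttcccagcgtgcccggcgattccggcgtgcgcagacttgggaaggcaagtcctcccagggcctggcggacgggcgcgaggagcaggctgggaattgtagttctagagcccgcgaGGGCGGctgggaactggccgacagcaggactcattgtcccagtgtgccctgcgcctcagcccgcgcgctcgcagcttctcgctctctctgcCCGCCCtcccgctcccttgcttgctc
Anapc4, both and higher in #2, chr5:52833885-52834134, plus strand: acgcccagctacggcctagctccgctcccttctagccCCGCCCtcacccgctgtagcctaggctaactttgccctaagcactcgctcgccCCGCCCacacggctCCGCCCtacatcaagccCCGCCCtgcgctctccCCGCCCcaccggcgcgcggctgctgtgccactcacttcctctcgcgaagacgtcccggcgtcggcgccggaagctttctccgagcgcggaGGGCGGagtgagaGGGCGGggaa
Zfp143, both and higher in #1, chr7:110061452-110061688, plus strand: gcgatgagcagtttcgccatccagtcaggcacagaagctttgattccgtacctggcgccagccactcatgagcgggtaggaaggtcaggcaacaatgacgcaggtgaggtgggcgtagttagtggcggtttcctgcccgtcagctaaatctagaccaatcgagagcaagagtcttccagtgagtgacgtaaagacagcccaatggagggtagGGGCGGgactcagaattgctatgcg
The Nr1d2 stretch holds the box 3 times, Casc1 3 times, Gatad2a 2 times, Pa2g4 2 times, Anapc4 7 times and Zfp143 1 time. The Zfp983 stretch holds none, and its GC content is 56.9% against 63.6% for Nr1d2 and 70.8% for Anapc4. At Nr1d2 the summits of both hairpins lay 76 and 77 bp before the start, so that both libraries placed the signal on the same bases. At Gatad2a they lay 55 and 21 bp before it, and at Anapc4 242 and 211 bp. At Zfp143 the #1 summit lay 34 bp and the #2 summit 302 bp before the start, at Casc1 140 and 70 bp, and at Zfp983 the #1 summit lay 58 bp before it. The #2 summit of Pa2g4 lay 392 bp before the start. The summits of Pa2g4, of Zfp143 in #2 and of Casc1 in #1 lay outside the printed letters.

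Promoters called with both hairpins and promoters called with 1 were similar in GC, CpG and motifs, and had more GC than promoters at large. Among genes with a RefSeq promoter window (250 bases before to 50 after the start), the median GC content was 66% for the 278 genes whose window met a region of both hairpins, 64.7% for 344 genes of #1 alone and 64.7% for 441 genes of #2 alone. Across all 27018 genes with a window it was 52.7%. The 17 genes whose window met a no-antibody interval also had a median of 66%, and 70.6% (44.0 to 89.7) of them held GGGCGG. The median number of CpG was 24 in each of the 3 classes, 20 in the no-antibody windows and 7 over all genes. The excess of G over C on the strand of the gene was taken in percent of G and C together. Its medians were 3.07 for both, 1.74 for #1 alone, 0 for #2 alone and 0.901 over all genes. The spread of this excess was not taken, so no difference between the classes is read from it. GGGCGG on either strand stood in 83.5% (78.6 to 87.6) of the windows of both hairpins, 77.9% (73.1 to 82.2) of #1 alone and 82.3% (78.4 to 85.8) of #2 alone, against 35.8% of all windows. CCAAT, the box bound by NF-Y, stood in 57.2%, 54.1% and 54% on either strand, against 37.8% of all. CCGGAAG, an ETS-factor motif, stood in 16.9%, 16.9% and 17.2%, against 9.1%. TATAAA, the core of the TATA box, stood in 4.32%, 4.65% and 4.31%, against 14.1%. A pattern of 4 runs of 3 or more G, at most 7 bases apart, that can fold into a G-quadruplex stood in 34.5% (29 to 40.4), 31.1% and 31.5%, against 18.1%. For each of these motifs the bounds of the 3 classes overlapped, while each class stood apart from all windows. Gene type was alike too, with protein-coding genes making up 92.1%, 91.6% and 91.1% of their gene-end regions.

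Both lists were called from similar numbers of fragments. The lowest background that could be recovered from fold and p together is proportional to depth and was 1.21 in #1 and 1.23 in #2, or 92.2% and 93.6% of shCtrl. The lists covered 514710 and 534965 bp, and the height of an interval is given below as its pileup, the number of fragments stacked at the summit. The median pileup was 16 in both lists and the lowest 8. A Poisson count of 16 has a 95% interval of 9.15 to 26.0, so single intervals were measured with low precision.

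Of the #1 intervals, 818 of 1519 or 53.9% (51.3 to 56.4) had a partner in #2, and of the #2 intervals 822 of 1640 or 50.1% (47.7 to 52.6) had one in #1. The shared bases came to 274255, which is 53.3% of the #1 list and 51.3% of the #2 list. These shares mixed 2 populations that behaved differently. Intervals that also met a no-antibody interval, 26.7% of #1 and 24.5% of #2, nearly all had a partner, at 92.8% (89.9 to 95.2) and 93.5% (90.7 to 95.7), and 96% and 95.3% of them met a shCtrl interval. Of the intervals free of no-antibody intervals, 442 of 1114 or 39.7% (36.8 to 42.6) of #1 and 446 of 1238 or 36% (33.3 to 38.8) of #2 had a partner. Most intervals that S9.6 called and the no-antibody library did not were thus called with 1 hairpin only. The no-antibody library was shallower, at 58.7% of shCtrl by its lowest background. A low site was therefore flagged less readily, and free intervals can include sites that a deeper no-antibody library would have called. The values from here on are for these free intervals unless stated.

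Set against shCtrl, 45.3% of all #1 intervals and 43.4% of all #2 intervals met a shCtrl interval. Of the free ones, 26.8% (24.3 to 29.5) of #1 and 26.6% (24.1 to 29.1) of #2 did. The shCtrl list is the shorter one, so the shares the other way are needed beside these. Of 842 shCtrl intervals, 34.4% (31.2 to 37.8) met #1 and 38.1% (34.8 to 41.5) met #2. Read from the side of #2, the bounds of its share in #1 (33.3 to 38.8) therefore overlap those of the shCtrl share in #1. From the side of #1, the bounds of its share in #2 (36.8 to 42.6) likewise overlap those of the shCtrl share in #2. An interval that was also called in shCtrl had a partner far more often, at 71.2% (65.7 to 76.3) of 299 in #1 and 65.7% (60.2 to 70.8) of 329 in #2. Intervals not called in shCtrl had one at 28.1% (25 to 31.3) of 815 and 25.3% (22.5 to 28.3) of 909. Merged over both lists, the 438 free regions of both hairpins fell into 214 that shCtrl also called and 224 that it did not.

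Taller summits had a partner more often, although most intervals with a partner held fewer than 20 fragments. At a pileup of 8 to 9 fragments, 12 of 78 intervals of #1 or 15.4% (8.21 to 25.3) and 8 of 71 of #2 or 11.3% (4.99 to 21) had a partner. At 14 to 15 fragments the shares were 41.5% (34.8 to 48.6) and 33.8% (27.7 to 40.3), and at 20 to 24 fragments 74.8% (65.2 to 82.8) and 64.1% (54.7 to 72.8). Beyond 24 fragments no further climb could be seen at these numbers, with 24 of 35 or 68.6% (50.7 to 83.1) and 24 of 30 or 80% (61.4 to 92.3) at 30 fragments or more. Cut into 4 equal groups by −log10 p, the #1 list had partners at 24.4% (19.5 to 29.8) in the weakest group and at 63.7% (57.7 to 69.3) in the strongest. In #2 these were 26.1% (21.3 to 31.4) and 54.7% (49 to 60.3). The deposited q ordered the intervals as p did.

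**Figure D1:**
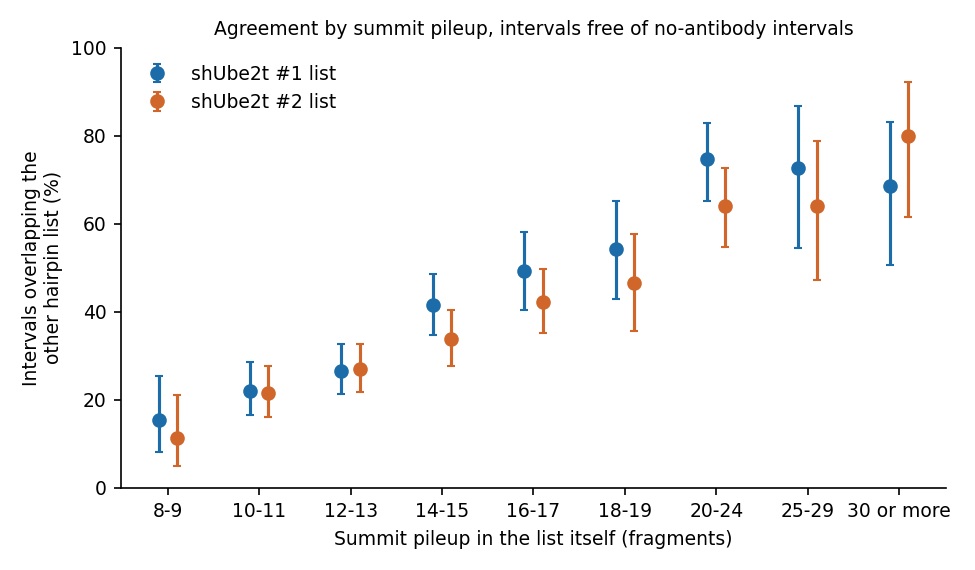
Share of intervals free of no-antibody intervals that overlapped the other hairpin's list (vertical axis, percent) against the summit pileup in fragments (horizontal axis), for shUbe2t #1 and #2; bars are exact 95% binomial intervals over 1 library each. The share goes from 15.4% and 11.3% at 8 to 9 fragments to 74.8% and 64.1% at 20 to 24.

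Fold enrichment, the deposited ratio of a summit to its local background, ordered the intervals less well than height. The 3 lower of 4 groups by fold had partners at 35.1%, 33.0% and 36.7% in #1 and at 34.2%, 31.9% and 35.0% in #2, and the highest at 54.0% (47.9 to 59.9) and 43.0% (37.4 to 48.8). The background itself went with agreement. Of 4 groups by local background, intervals in the lowest had partners at 22.9% (18.1 to 28.3) and 19.7% (15.4 to 24.5), and those in the highest at 56.1% (50.1 to 62.0) and 51.8% (46.1 to 57.5). A summit of a given fold holds more fragments where the background is higher, so height and background were not separated here.

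The distance to the other library's threshold was also set out. For each interval the fragments it would have had at the other library's depth were divided by the fewest that would have been called there, taking the local background to be the same apart from depth. That ratio lay below 1 for 7 intervals of #1, of which 3 had a partner, and for 93 of #2, of which 19 or 20.4% (12.8 to 30.1) had one. Where that ratio lay between 1 and 1.25, 27.0% (22.7 to 31.7) of 396 intervals of #1 and 27.3% (22.7 to 32.4) of 344 of #2 had a partner. Where it was 2 or more, 46 of 57 or 80.7% (68.1 to 90.0) and 34 of 41 or 82.9% (67.9 to 92.8) had one. Intervals without a partner were not mostly shifted copies of intervals in the other list. Of 672 in #1 and 792 in #2, 40 and 35 lay within 1000 bp of an interval of the other hairpin, and the median distance to the nearest was 318 and 380 kb.

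Wider intervals had partners more often. The narrowest of 4 groups by width had them at 24% (19.1 to 29.5) in #1 and 16.1% (12.2 to 20.7) in #2, and the widest, from 341 and 329 bp upward, at 61.5% (55.5 to 67.3) and 59.2% (53.5 to 64.8). A wide interval gives more bases to meet, and it also tends to be taller, so width was read within the weaker and the stronger intervals, parted at the median −log10 p, and narrow and wide were parted at the median width. Among weaker intervals, narrow intervals had partners at 23.0% (18.3 to 28.3) and 17.8% (13.9 to 22.4) and wide ones at 34.7% (29 to 40.7) and 38.9% (33.2 to 44.8). Among stronger intervals the shares were 35.0% (29.2 to 41.0) and 29.4% (24.3 to 35.0) for narrow intervals and 65.4% (59.6 to 70.9) and 58.4% (52.8 to 63.9) for wide ones. The bounds of strong but narrow and of weak but wide intervals overlapped in both lists.

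The narrowest form is an interval at the minimum width of 200 bp, with signal above threshold over no more than the least span the lists hold. There were 251 of these in #1 and 313 in #2, with partners at 23.5% (18.4 to 29.2) and 16.3% (12.4 to 20.9). At the minimum width and a pileup of at least 14, the median of the free intervals, 33.7% (24.3 to 44.1) of 95 and 26.5% (18.7 to 35.7) of 113 had a partner. With the same floor of 14 fragments and more than the median width, 67.5% (62.1 to 72.5) of 326 and 58.6% (53.4 to 63.7) of 372 had one. Heights above that floor were not matched, and wider intervals tend to be taller. Intervals holding several summits had partners at 32 of 38 or 84.2% (68.7 to 94.0) and 33 of 45 or 73.3% (58.1 to 85.4).

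**Figure D2:**
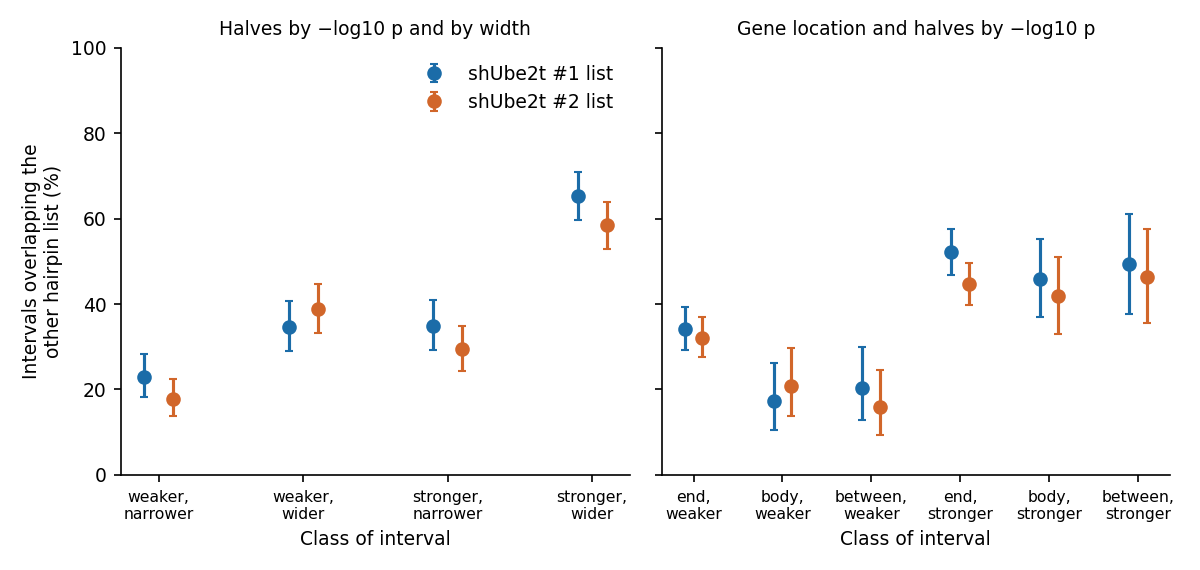
Share of intervals free of no-antibody intervals with an overlap in the other hairpin's list (percent) for weak and strong intervals parted at the median −log10 p, by narrow and wide at the median width and by gene location, for shUbe2t #1 and #2; bars are exact 95% binomial intervals. Strong wide intervals stand at 65.4% and 58.4%, and weak intervals in gene bodies at 17.3% and 20.9%.

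Most free intervals of both lists lay near gene ends. Gene ends here are the 1000 bp to each side of the annotated start and finish of a gene, and intervals clear of them were split into those over a gene body and those between genes. At gene ends 304 of 707 intervals of #1 or 43.0% (39.3 to 46.7) and 309 of 804 of #2 or 38.4% (35.1 to 41.9) had a partner. In gene bodies 33.3% (27.2 to 40.0) of 222 and 31.9% (25.9 to 38.3) of 232 had one, and between genes 33.3% (26.3 to 41.0) of 168 and 29.9% (23.4 to 37.1) of 184. The locations stood further apart among weak intervals. Below the median −log10 p, gene ends had partners at 34.2% (29.3 to 39.3) and 32.2% (27.6 to 37.0), gene bodies at 17.3% (10.4 to 26.3) and 20.9% (13.7 to 29.7), and places between genes at 20.4% (12.8 to 30.1) and 16% (9.43 to 24.7). Above the median the 3 locations overlapped in their bounds, with 52.2%, 46.0% and 49.3% in #1 and 44.7%, 41.8% and 46.4% in #2. With only intervals of a −log10 q of at least 5 kept in both lists, the difference between gene ends and places between genes was -12.7 percentage points (-27.8 to 2.13) in #1 and -7.40 (-20.7 to 4.65) in #2, with 0 inside both bounds. Over all free intervals it was 9.67 (1.41 to 17.3) and 8.54 (0.829 to 15.6), and with predicted genes left out 5.65 (-1.61 to 12.6) and 4.26 (-2.50 to 10.7). The location difference was thus small and depended on the intervals and genes counted.

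Read from the hairpin side, the order of locations against shCtrl was the other way round. Of the #1 intervals, 23.1% (20 to 26.3) at gene ends and 33.3% (26.3 to 41.0) between genes met a shCtrl interval, and of the #2 intervals 23.4% (20.5 to 26.5) and 31.0% (24.4 to 38.2). At equal height the same split appeared. At gene ends with 14 to 19 fragments, 48.4% (42.5 to 54.4) of 285 intervals of #1 met #2 and 22.1% (17.4 to 27.4) met shCtrl, and 40.5% (35.4 to 45.8) of 358 intervals of #2 met #1 and 25.4% (21.0 to 30.3) met shCtrl. Away from gene ends at that height the pairs were 41.7% (33.2 to 50.6) and 37.1% (28.9 to 46.0) for #1, and 35.3% (27.3 to 43.9) and 36.0% (28.0 to 44.7) for #2. With 8 to 13 fragments at gene ends the pairs were 28.6% (23.8 to 33.7) and 14.3% (10.7 to 18.5) for #1, and 27.2% (22.5 to 32.2) and 11.8% (8.64 to 15.7) for #2. Away from gene ends they were 13.2% and 17%, and 15.5% and 13.5%. At equal pileup the hairpin lists thus met each other more often than they met shCtrl at gene ends, and at about the same rate elsewhere.

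The lists to be met are of unequal size at gene ends, and this belongs beside those values. The shCtrl list held 381 free intervals there against 707 and 804 of the hairpins, while in gene bodies it held 227 against 222 and 232, and between genes 208 against 168 and 184. Read from the shCtrl side, 42.3% (37.2 to 47.4) of its gene-end intervals met #1 and 48.3% (43.2 to 53.4) met #2. These shares are as high as those of the hairpins for each other. With 1 control library, a spread between libraries given the same virus cannot be told apart from a difference between knockdown and control. At 14 to 19 fragments, intervals that met a no-antibody interval had partners at 37 of 51 or 72.5% in #1 and 36 of 47 or 76.6% in #2, so that those sites recurred more often than free sites of the same height.

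**Figure D3:**
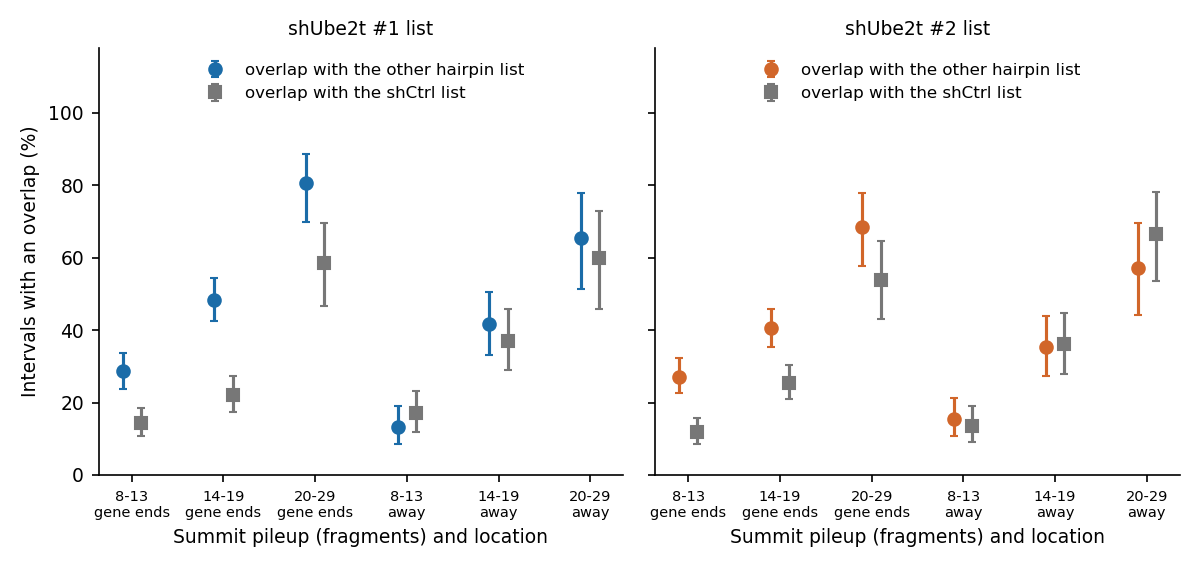
Share of intervals free of no-antibody intervals (percent) that overlapped the other hairpin's list (coloured circles) or the shCtrl list (grey squares), by summit pileup in fragments, at gene ends and away from them; bars are exact 95% binomial intervals over 1 library each. At gene ends with 14 to 19 fragments the pairs are 48.4% and 22.1% for #1 and 40.5% and 25.4% for #2, and away from gene ends 41.7% and 37.1%, and 35.3% and 36.0%.

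Whether the gene end carried a start made little difference. Gene-end intervals within 1000 bp of a start listed by RefSeq had partners at 42.8% (38.6 to 47.0) in #1 and 37.8% (34.0 to 41.7) in #2, and the others at 41.2% (32.7 to 50.2) and 38.8% (30.7 to 47.5). Where starts lay on both strands, as at divergent gene pairs, the shares were 44.2% (36.0 to 52.6) and 36.9% (29.8 to 44.4), and where on 1 strand 42.1% (37.3 to 47.1) and 38.4% (33.9 to 43.1). The summit tended to lie before the start in every class. Its median position was 99.5 bp before the start for #1 intervals with a partner and 56 bp for those without, and 91 and 66 bp for #2. By chromosome, over those with at least 20 free intervals, the share ran in #1 from 19.2% on chromosome 12 (5 of 26) to 51.9% on chromosome 5, and in #2 from 11.4% on chromosome 12 (5 of 44) to 47.6% on chromosome 18. Chromosome 12 was thus lowest for both hairpins, with bounds of 6.55 to 39.4 and 3.79 to 24.6, and the low end was picked after the values were seen. Both shares count the same shared places from either side, so they are not separate observations.

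At places that both hairpins called, the median height was nearly equal and single pairs scattered widely. Over 818 matched pairs the ratio of depth-scaled pileup, #2 over #1, had a median of 0.986, and from the 5th to the 95th percentile it ran from 0.657 to 1.51. Summits of a pair lay a median of 54 bp apart in the 439 free pairs and 16 bp apart in the 379 pairs that met a no-antibody interval. In 3 of the 439 free pairs, or 0.683%, an exact 95% interval of the share of fragments left out the share that depth gives. Among the 379 pairs with a no-antibody interval, 33 or 8.71% did so. The interval was set for each pair with no allowance for the number of pairs, so some pairs fall outside by counting error alone. Pairs had to be called in both lists, which keeps low partners out, and at a median of 16 fragments the interval is wide, so the low number in free pairs does not show equal heights. The other pairs have a median of 40 fragments and narrower intervals. Across pairs, which share their library, the Spearman correlation of pileups was 0.583 in free pairs and 0.945 in pairs with a no-antibody interval. Those of fold were 0.392 and 0.944. The free pairs span fewer heights, as their lower median pileup shows.

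**Figure D4:**
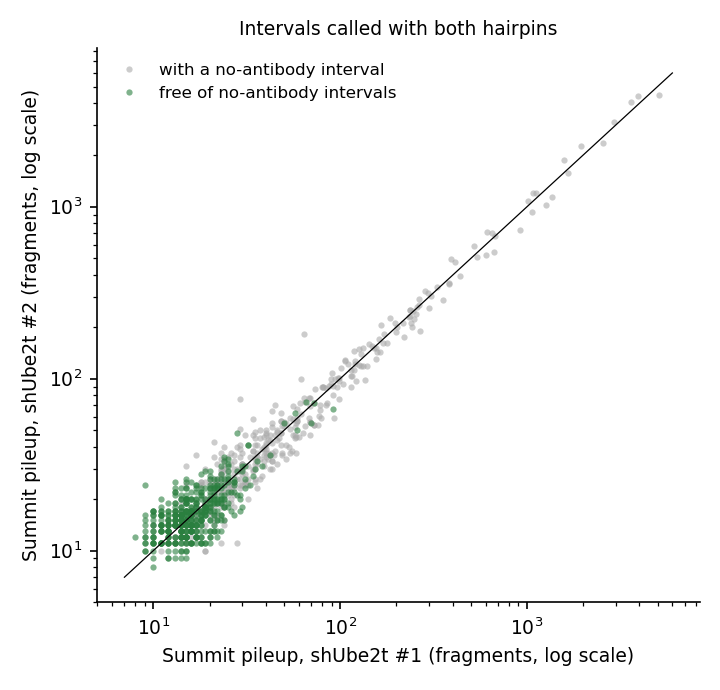
Summit pileup in fragments of shUbe2t #1 (horizontal) and shUbe2t #2 (vertical), on log axes, at the 818 matched intervals, with pairs free of no-antibody intervals and pairs that met one in different colours. Both kinds of pair run along the line of equal pileup; the free pairs lie at its low end with a median of 16 fragments in both lists.

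The 3 free pairs whose own interval left out equal signal had 1 gene among them, and counting error alone can give such pairs. Hmbox1, which encodes a homeobox protein of telomeres, shares the region (chromosome 14, 64949619 to 64949998) with Ints9, a subunit of the Integrator complex. Its pileup was 9 in #1, 24 in #2 and 9 in shCtrl. The ratio of #2 to #1 at equal depth was 2.63, the highest of the 439 free pairs, so it is given as a description of a pair picked for its ratio. A place between genes on chromosome 5 held 28 and 48 fragments, and 1 on the unplaced sequence JH584304.1 held 92 and 67.

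Among protein-coding genes, 987 held a free #1 region in the body or within 1000 bp, which is 4.51% of the 21887 in the table, and 1086 or 4.96% held a #2 region. Both hairpins reached 450, or 45.6% (42.5 to 48.8) of the first and 41.4% (38.5 to 44.4) of the second, and 418 of these, 1.91% of all protein-coding genes, had a region in common. Only 32 genes held a region of each hairpin with none in common. Over all 49943 genes of every type, 2.42% held a #1 region, 2.69% a #2 region and 1.02% a region in common. Counting by gene instead of by interval therefore moved the shares by a few points. Of the 32, the highest by p was Dcaf11, a substrate receptor of CUL4 ubiquitin ligases, with 23 fragments in #1 and 22 in #2 at intervals 395 bp apart at the summits. Nasp, a histone chaperone, had 20 and 17 fragments 445 bp apart, and the end shared by Dcun1d3 and Lyrm1 had 15 and 15 fragments 365 bp apart. At Arhgap26, a RhoGAP, the intervals lay 7.05 kb apart.

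The gene ends that both hairpins called most strongly served varied functions. Casc1 shares its end with Etfrf1, a regulator of an electron transfer flavoprotein, and held 27 fragments in #1, 22 in #2 and 14 in shCtrl. Gatad2a, a subunit of the NuRD chromatin remodelling complex, held 20, 24 and 9. Usp22, the deubiquitinase of the SAGA complex, held 24, 26 and 19. Nr1d2, the circadian repressor REV-ERB beta, held 25, 32 and 17. Sap130, a subunit of the Sin3 deacetylase complex, was higher in shCtrl than in both hairpins, with 42, 36 and 48. Hexdc, a hexosaminidase that shares its end with Ogfod3, held 29, 20 and 19. Garem1, an adaptor of growth factor signalling, held 21, 23 and 12. Ap2a1, the large alpha chain of the AP-2 adaptor of clathrin coats, held 20, 27 and 17. In 7 of the 8 ends that shCtrl also called, both hairpins were above it, though Hexdc #2 only by a single fragment. The ends were picked for their strength in the hairpin lists, so nothing is read from that count. The other 2 of the 10 ends had no shCtrl interval. The end shared by Cdca3, a regulator of mitotic entry, and Usp5, a deubiquitinase, held 31 and 26 fragments. Inpp5f, a phosphoinositide phosphatase, held 15 and 25. Single counts of this size carry wide intervals, so none of these differences stands alone.

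**Figure D5:**
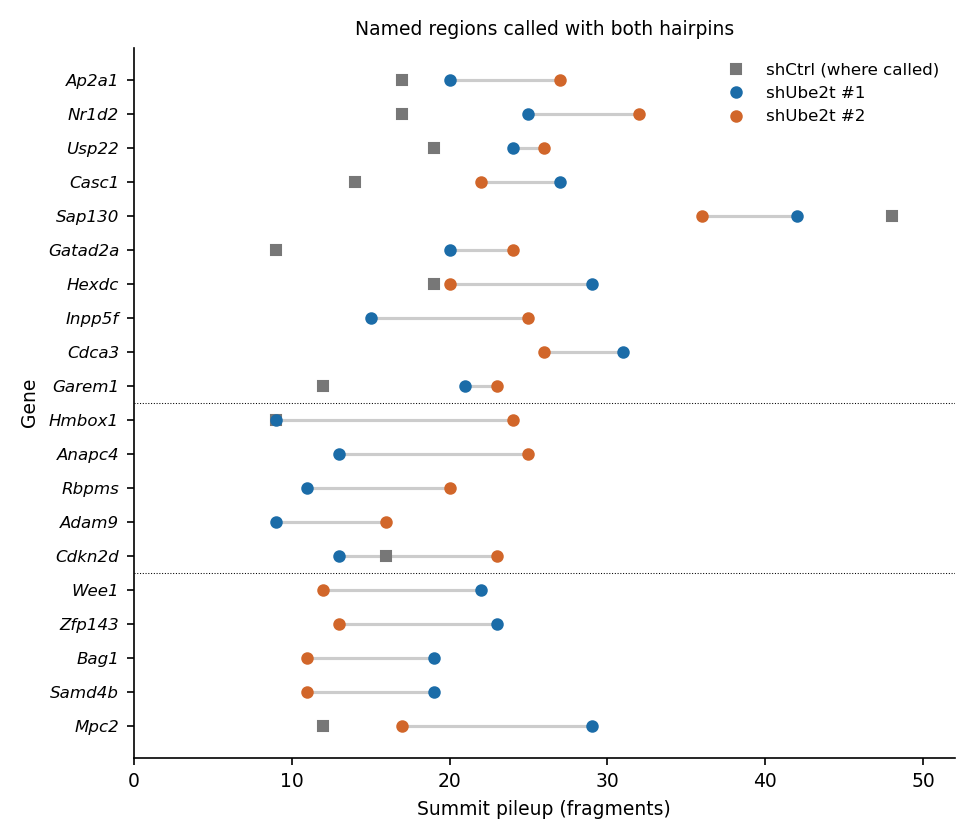
Summit pileup in fragments (horizontal axis) of #1, #2 and, where called, shCtrl at named regions of both hairpins. From top to bottom, dotted lines part the 10 strongest gene ends, the 5 regions with the highest ratio of #2 to #1 and the 5 with the lowest; Hmbox1 has the widest gap, 9 against 24.

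Among free regions of both hairpins in gene bodies, the highest by mean rank of p was at Il1rapl1, which encodes a receptor-like protein of synapses, with 70 fragments in #1, 55 in #2 and 48 in shCtrl (chromosome X, 87238257 to 87238521). Peak1, a pseudokinase of the cytoskeleton, held 25, 26 and 16. Ppfibp2, a liprin, held 27, 26 and 24. Speer4cos, a transcribed pseudogene, held 57, 63 and 65. These counts are not scaled for depth, and #2 had 93.6% of the depth of shCtrl, so #2 and shCtrl are not ranked here. Kat6b, a histone acetyltransferase, held 27, 25 and 18. These gene-body regions were chosen after their values were seen. Each of them was also called in shCtrl.

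Strong places of 1 hairpin alone existed on both sides. With #1 alone, an interval 159 bp from the end of Dcaf6, another CUL4 receptor (chromosome 1, 165460480 to 165460747), held 25 fragments at a fold of 6.5. A region of both hairpins lay beside it at the same divergent promoter, where Mpc2, a subunit of the mitochondrial pyruvate carrier, held 29 fragments in #1 and 17 in #2. The end shared by Nbr1, an autophagy receptor, and Brca1, a homologous recombination protein, held 23. The start of Gnl3, the nucleolar GTPase nucleostemin, lies next to Pbrm1, a SWI/SNF subunit, and held 20. Fbxo5, the inhibitor EMI1 of the anaphase-promoting complex, held 21. These ends belong to genes of several pathways, and the remaining regions lay at the zinc finger gene Zfp983 and in 3 gene bodies. Zfp983 held 19 fragments. Vapa, an endoplasmic reticulum contact protein, held 22 and Hydin, a protein of motile cilia, 20. Zfp984 held 28, with 24 in shCtrl. Of these 8 regions, 1 was also called in shCtrl, that at Zfp984, against 12.8% of all 672 free regions of #1 alone.

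With #2 alone, the end of Pa2g4, a growth-regulating nucleic acid binding protein, held 27 fragments over 493 bp at a fold of 7.87. Oasl1, an interferon-induced protein, held 26. Atp6v0a1 encodes a subunit of the proton pump V-ATPase and held 21. Zbtb7b, best known as a transcription factor of T cell fate, held 25. Kdm3a, a histone H3K9 demethylase, held 17. Ptprg, a receptor tyrosine phosphatase, held 23 in its body with 17 in shCtrl. Egr1, an immediate early transcription factor, held 28 alone in #2, and a second region within 1000 bp of the gene was called in both, at 22 and 19 fragments. Of these 8 regions, Dcaf11 included, 1 was also called in shCtrl, that at Ptprg, against 14.3% of all 792 free regions of #2 alone. A gene that appears with 1 hairpin alone can thus still have a shared region beside it.

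Shared regions of unequal height were taken from both ends of the ratio. After Hmbox1, the highest was Anapc4, a subunit of the anaphase-promoting complex, with 13 fragments in #1 and 25 in #2. Rbpms, an RNA-binding protein, held 11 and 20. Adam9, a membrane metalloprotease, held 9 and 16. Cdkn2d, an inhibitor of the cyclin-dependent kinases of early cell cycle, held 13 and 23, with 16 in shCtrl between them. At the other end of the ratio, Wee1, the kinase that holds back CDK1, held 22 in #1 and 12 in #2. Zfp143, an activator of promoters, held 23 and 13. Bag1, a co-chaperone, held 19 and 11, as did Samd4b, an RNA-binding protein. The fifth of these was Mpc2. The ratio of #2 to #1 at equal depth was 1.90 at Anapc4 and 0.538 at Wee1. Apart from Hmbox1, each of these had a per-pair interval that took in equal height. Wee1 and Zfp143 are both on chromosome 7, with regions at 110121661 to 110121970 and 110061281 to 110061789.

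The tallest summits without a partner stood over a high local background, as many tall ones with a partner did. Of the 35 free intervals of #1 with 30 fragments or more, 11 had none in #2. Of these, 4 lay on the unplaced sequence JH584304.1, and the folds of the 11 ran from 1.76 to 3.44 with a median of 2.56. The 24 with a partner had folds from 1.99 to 25.7 with a median of 4.17, and 16 of them were under 5. The tallest of the 11, between genes near the start of chromosome 9 (3007160 to 3007362), held 124 fragments in #1. The tallest shCtrl interval overlapping it held 606 at its own summit, which may lie outside this place. In #2, 6 of 30 had none in #1, with folds from 1.90 to 4.88 and a median of 3.95. The 24 with a partner ran from 1.81 to 21.9 with a median of 4.13, and 18 of them were under 5. Among the 6 of #2 without a partner was the end of Mnt, a repressor of the MAX network, with 32 fragments.

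Gene lists close to the question are given by their counts, beside 4.51% of all protein-coding genes for #1 and 4.96% for #2. Apart from the very long genes, the counts are too small at the size of these lists to be told from that background. Members and lists were chosen with earlier results of these data known, so no contrast is read for the very long genes either. Of 30 R-loop processing genes, 2 held a #1 region and 3 a #2 region, with 1 in common. That gene was Bard1, the partner of BRCA1, at 11 and 14 fragments. Ddx5, a DEAD-box helicase, held 14 in #1 alone. Xrn2, an exonuclease of transcription termination, held 14 in #2 alone. Among 31 genes of crosslink repair, most of them Fanconi anaemia genes, 2 held a #1 and 4 a #2 region. Fancc, a core complex member, was in common at 15 and 12 fragments. In #2 alone, Fancl, the ligase that UBE2T serves, held 15, Slx4, a nuclease scaffold, held 13 and Rfwd3, a ligase acting on RPA, held 12. The Brca1 end is the #1 region already described with Nbr1.

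Of 33 ubiquitin E2 genes, 3 held a #1 and 2 a #2 region. Birc6, a giant E2 and inhibitor of apoptosis, was in common at 14 and 13 fragments, Ube2d3 and Ube2s were in #1 alone at 13 and 11, and Ube2g1 in #2 alone at 20. Of 37 ribosomal protein genes, Rpl7 and Rpl15 held a #1 region at 11 and 12 fragments and none held a #2 region. No replication-dependent histone gene of 27 held either, and of 33 spliceosome genes Sf3b2 held 14 fragments in #2 alone. Of 34 replication and cell cycle genes, Ccna2 held 15 in #1 alone, and Mcm4 and Cdk4 held 14 and 17 in #2 alone. The 27 very long genes gave 5 with a #1 and 5 with a #2 region, or 18.5% for each hairpin. They offer more bases, and the shares of all protein-coding genes were not matched for length. In common were Il1rapl1 and Lrp1b, a large lipoprotein receptor, at 16 and 15 fragments.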

How the data were processed

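S9.6 CUT&Tag of P19 cells was analysed from the peak lists the authors deposited, 1 per library. The tools named, per the submitters' processing notes, are MACS2 2.1.2, Trimmomatic and a Bowtie listed as 0.7.12, with mm10 as the build. How duplicates were treated, at which threshold peaks were called and whether a control library was used is not given in the sources used here. In the lists themselves the lowest −log10 q was 1.32 for #1 and 1.32 for #2. Duplicates that were kept would raise pileups. The deposited values per summit are a fold enrichment (a ratio), p and q on a −log10 scale, and a display score that was not used.

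Summits sharing an interval were reduced to the best by p. Fold (with 1 added to both terms) and the Poisson p were solved for pileup and background. All solved pileups were whole within 0.05, and the 1352 and 1459 backgrounds compared in #1 and #2 were multiples of 0.02 within 0.002. The step is that of fragments of 200 bp in 10000 bp of the same library. The lowest background measured depth, and the number of fragments per library is unknown. Solving was tested on simulated summits.

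Genes (49943) and promoter windows are RefSeq's on GRCm38.p6, the build mm10. Exons, introns and sequence outside promoter windows were not used here. Windows were not used for chromosome 18, and 28 of the 36 named genes had one. A region took the name of the gene end closest to it within 1000 bp, or else of the longest gene around it, with Gm and Rik names last. A shCtrl height given for a region is that of the tallest shCtrl interval overlapping it. Named were the 10 gene ends of both hairpins with the highest mean rank of p, the 8 strongest regions of each hairpin alone, the 5 highest and 5 lowest pileup ratios, genes with different sites, and list members. Members and lists were chosen with earlier results of these data known. One gene of the lists is left unnamed.

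With 1 library per hairpin no test was made. Alternatives were a reciprocal overlap of 50%, summits within 200 bp, a −log10 q of at least 5, equal list lengths, every summit, an extension by 200 bp, other measures of strength and other gene-end windows. Python 3.11.15, numpy 2.4.6, scipy 1.17.1, pandas 2.3.3, statsmodels 0.14.6 and matplotlib 3.10.9 were used.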

Additional observations from a re-analysis of the deposited data

How the results depend on the processing

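No paired analysis was possible because each hairpin has 1 library and its number names the hairpin, not a replicate. Depth limits all values: a median summit of 16 fragments leaves single calls uncertain. The settings of placed chromosomes only and of strength by pileup were chosen after seeing the data. Of 62 alternatives, 36 left a value within its counting interval, 24 moved it and 2 turned its sign; the cause was not tested.

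The share of #1 and #2 with a partner was 45.4% and 42.0% with at least 50% of both intervals covered, 48.3% and 44.7% with summits at most 200 bp apart, 63.5% and 57.5% at a −log10 q of at least 5 in both lists, and 57.9% and 54.1% with every summit counted. Free of no-antibody intervals the first 3 settings gave 30.3% and 27.2%, 34.9% and 31.3%, and 35.8% and 29.4%. Over 4 groups of strength, the strongest minus the weakest, 39.3 and 28.6 percentage points by p, was 18.8 and 8.85 by fold, 66.8 and 63.2 over all intervals, and 49.6 and 39.4 away from gene ends. By pileup it was 38.6 in #2. The widest minus the narrowest of 4 groups, 37.5 and 43.1 points, was 52.8 and 59.0 over all intervals, and 21.0 among the weaker intervals of #1. Gene ends minus places between genes, 9.67 and 8.54 points, was -12.7 (-27.8 to 2.13) and -7.40 (-20.7 to 4.65) at a −log10 q of at least 5 in both lists. It was 5.65 (-1.61 to 12.6) and 4.26 (-2.50 to 10.7) with predicted genes left out, and 7.05 (-1.05 to 14.7) and 6.55 (-0.900 to 13.5) with gene ends within 500 bp.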
